A study of Sus scrofa with 6 samples.

Results

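The antioxidant and glutathione enzymes described here are 10 genes: the superoxide dismutases SOD1 and SOD2, catalase (CAT), the glutathione peroxidases GPX1 and GPX4, the peroxiredoxins PRDX2 and PRDX6, thioredoxin (TXN), the glutathione transferase GSTA1 and haem oxygenase 1 (HMOX1). They were chosen by symbol, taking every probe set whose platform annotation gives that symbol alone. A probe set is the group of short oligonucleotides that reads a transcript on an Affymetrix array. The rule found all 10 genes, among the 6765 named by single symbols on the array, in 14 of 23999 probe sets: 3 for GSTA1, 2 each for TXN and GPX4 and 1 for each other gene.

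The arrays measured total RNA of pig ovarian follicles isolated from prepubertal gilts by morphology and diameter, so as to follow expression while follicles grow. Each of 3 stages was hybridised on 2 arrays: primordial follicles, middle stage follicles and follicles of the last stage. The stage names come from the sample titles, while a description attached to all 6 samples calls them primordial follicles before growth. The titles call the replicates biological, but nothing says that they came from separate animals or pools, so a p-value here speaks only of the spread among these samples, which may be technical. The number of follicles or gilts per sample and the diameters are not stated in the labels.

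Superoxide, formed when oxygen takes up an electron in mitochondria, in steroid-synthesising P450 reactions and in the oxidase of phagocytes, is converted by superoxide dismutases to hydrogen peroxide. Catalase breaks hydrogen peroxide down directly, glutathione peroxidases reduce peroxides at the cost of glutathione, and peroxiredoxins do so with electrons that mostly come from thioredoxin. Glutathione transferases couple glutathione to reactive compounds, and alpha-class members are known as abundant proteins of steroid-producing cells. Haem oxygenase breaks down haem and is known for its induction by oxidative stress and its high level in macrophages that clear red cells.

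The deposited signals are linear, and each array was scaled to 1 mean: without the lowest and highest 2% of values it was 499.1 to 499.9. The median signal was 119.3 and 125.4 on the primordial, 169.9 and 165 on the middle and 140.3 and 150.6 on the last arrays. Markers of 10 of 13 listed oocyte genes summed to 493 and 459 on the primordial arrays, against 20027 and 21758 on the middle arrays and 882 on each of the last arrays. The lowest oocyte marker signal was 3.2, 215 and 9 over the arrays of the primordial, middle and last stage. The primordial arrays thus carried almost no signal of the genes that define an oocyte, which goes against the label. Macrophage and other immune markers (9 of 12 listed genes) summed to 20951 and 18250.4 on those arrays, to 1547 and 1129 on the middle arrays and to 1780.4 and 4530.2 on the last arrays. The gap between 3′ and 5′ control probe sets, which widens as RNA is degraded or copied less far, was 3.56 and 3.21 log2 units for an actin control on the primordial, 4.98 and 4.21 on the middle and 3.90 and 3.57 on the last arrays. Of the other 3 controls of this kind, a further actin pair was at -0.954 and -1.002 on the primordial, -2.62 and -0.61 on the middle and -0.61 and -1.57 on the last arrays. GAPDH gave 3.37 and 3.14, 3.08 and 3.11, and 2.82 and 2.59, and a second GAPDH pair 3.43 and 2.69, 3.29 and 2.79, and 1.90 and 1.86, in the same order. The gap was widest at the middle stage for 1 of the 4 controls, and both GAPDH pairs had their smallest gaps at the last stage. The part of RNA quality in the differences below was not tested. Each comparison with the primordial stage below is a comparison with arrays of that composition.

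SOD2, GPX1 and HMOX1 were several-fold lower on the middle and last arrays than on the primordial arrays. CAT was higher after the primordial stage by a smaller amount, PRDX6 was lower at the last stage alone, PRDX2 was lower at the middle stage, and no difference of SOD1 passed the test. The probe sets of TXN moved in opposite directions between the primordial and middle stages, and so did 2 of the 3 probe sets of GSTA1. Differences are on the scale of log2(signal + 16), with the standard error (SE) from a linear model of all 6 arrays (limma). A probe set was called where its p-value, adjusted by Benjamini-Hochberg over all 14399 probe sets tested, was under 0.05. Of the 14 probe sets, 13 passed the filter on mean signal, which kept sets of 91.3 or more.

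**Figure D1:**
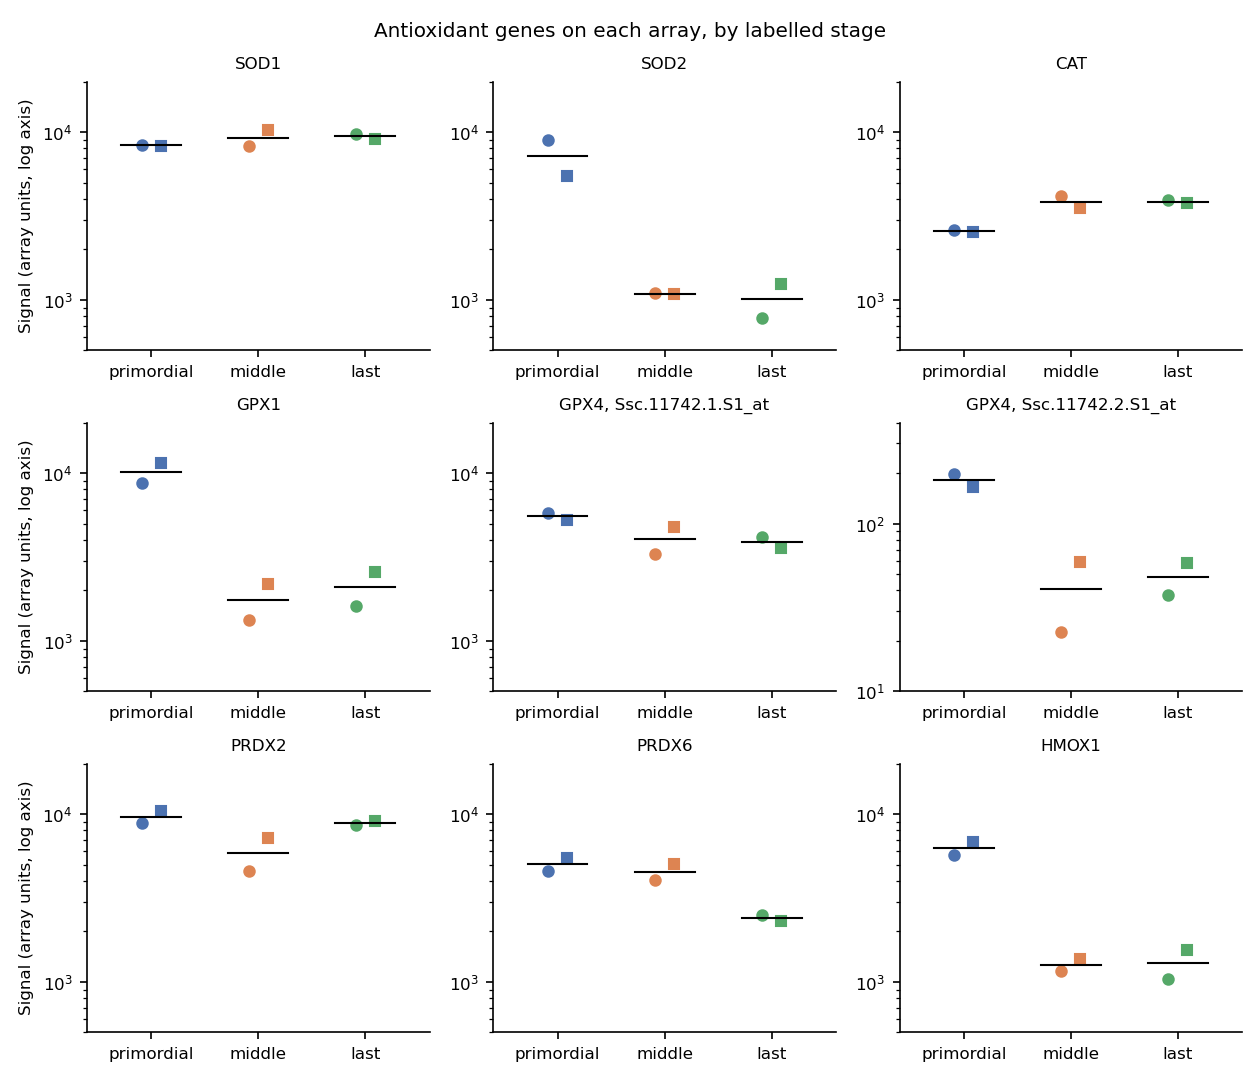
Signal on each array (log axis) for 9 probe sets of the 8 genes other than GSTA1 and TXN, by stage. Circles are replicate 1, squares are replicate 2 and bars are the mean of a stage. SOD2, GPX1 and HMOX1 lie far higher on both primordial arrays than on the other 4, while SOD1 lies between 8219 and 10230.3 throughout.

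SOD1 and SOD2 encode the copper-zinc enzyme of the cytosol and the manganese enzyme of mitochondria. SOD1 had a signal of 8424.5 and 8219 on the primordial, 8231 and 10230.3 on the middle and 9797 and 9117 on the last arrays. The last and primordial arrays did not overlap, but their difference of 0.18 ± 0.15 (SE, adjusted p = 0.374) had a 95% interval of -0.15 to 0.52. The middle and primordial arrays overlapped and differed by 0.14 ± 0.15 (adjusted p = 0.463, 95% interval -0.19 to 0.48). With quantile normalization that difference was 0.55 (adjusted p = 0.00911), and once every array was shifted to a common median (median centring) it was -0.10 (adjusted p = 0.615), so SOD1 has no settled direction here.

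SOD2 had a signal of 8975 and 5475 on the primordial, 1095 and 1079 on the middle and 781 and 1238 on the last arrays. Both primordial arrays were above all 4 others, and the last arrays spanned the middle ones. SOD2 was 6.37-fold lower at the middle stage than at the primordial stage (-2.67 ± 0.28, adjusted p = 0.000101). At the last stage it was 7.03-fold lower than at the primordial stage (-2.81 ± 0.28, adjusted p = 0.000195). Between the last and middle stages the difference was -0.14 ± 0.28 (adjusted p = 0.767).

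CAT, the haem enzyme of peroxisomes, had a signal of 2618 and 2536 on the primordial, 4134 and 3517 on the middle and 3922 and 3757 on the last arrays. The primordial arrays were the lowest, and the last arrays lay within the range of the middle ones. CAT rose 1.48-fold at the middle stage relative to the primordial stage (0.56 ± 0.16, adjusted p = 0.0188). Relative to the primordial stage it also rose at the last stage, 1.49-fold (0.57 ± 0.16, adjusted p = 0.0249), and the last and middle stages differed by 0.01 ± 0.16 (adjusted p = 0.977). These calls depend on the scale. After median centring the rises were 0.32 (adjusted p = 0.135) and 0.44 (adjusted p = 0.0668). The middle-stage call was also lost without primordial replicate 1 (0.59, adjusted p = 0.0720), primordial replicate 2 (0.54, adjusted p = 0.0936) or middle replicate 1 (0.45, adjusted p = 0.112). For the last stage it was lost without primordial replicate 1 (0.595, adjusted p = 0.0931), primordial replicate 2 (0.55, adjusted p = 0.119), last replicate 1 (0.54, adjusted p = 0.0840) or last replicate 2 (0.60, adjusted p = 0.0512). Signals of 4 markers of erythroid cells, which are rich in catalase, summed to 877 and 812 on the primordial, 1883 and 1699 on the middle and 1482 and 1282 on the last arrays. HBB, a haemoglobin chain, made up most of that sum, with 726 and 668 on the primordial, 1691 and 1597.5 on the middle and 1311 and 1028 on the last arrays. ALAS2, the other erythroid marker tested, differed by 0.03 ± 0.37 between middle and primordial (adjusted p = 0.950). The part of red cells in the CAT difference was not tested.

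GPX1 encodes the glutathione peroxidase of the cytosol and mitochondria, a selenoprotein that reduces hydrogen peroxide. Its signal was 8780.1 and 11498 on the primordial, 1331 and 2169 on the middle and 1616 and 2587 on the last arrays. The primordial arrays stood apart, and the middle and last arrays overlapped. GPX1 fell 5.87-fold at the middle stage relative to the primordial stage (-2.55 ± 0.29, adjusted p = 0.000146) and 4.88-fold at the last stage (-2.29 ± 0.29, adjusted p = 0.000575). The last and middle stages differed by 0.27 ± 0.29 (adjusted p = 0.564).

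GPX4 is the selenoprotein that reduces lipid peroxides within membranes. Its probe set Ssc.11742.1.S1_at had a signal of 5817 and 5236 on the primordial, 3308 and 4759 on the middle and 4138 and 3596.5 on the last arrays. Both primordial arrays were above the other 4, which overlapped. The middle minus primordial difference was -0.47 ± 0.20 (adjusted p = 0.0751) and the last minus primordial one -0.51 ± 0.20 (adjusted p = 0.0738). Both passed the threshold after median centring, at -0.71 (adjusted p = 0.0155) and -0.65 (adjusted p = 0.0336). The middle minus primordial difference also passed without middle replicate 2 (-0.74, adjusted p = 0.0257). The last minus primordial difference of -0.51 passed without middle replicate 1 (adjusted p = 0.0483) or middle replicate 2 (adjusted p = 0.0499). The other set, Ssc.11742.2.S1_at, had a signal of 198.5 and 165 on the primordial, 22.6 and 59.1 on the middle and 37.3 and 58.3 on the last arrays. Its mean of 90.1 is just under the filter, so it was not among the sets tested. In a fit without the filter it differed by -1.87 ± 0.43 (adjusted p = 0.0130) between the middle and primordial stages and by -1.65 ± 0.43 (adjusted p = 0.0343) between the last and primordial stages. The first of these was past 0.05 without primordial replicate 1 (adjusted p = 0.0752), primordial replicate 2 (0.0539) or middle replicate 1 (-1.39, adjusted p = 0.0927). The second was past 0.05 without any one of the primordial or last arrays, with adjusted p-values of 0.152 and 0.114 without primordial replicates 1 and 2, and of 0.153 and 0.0649 without last replicates 1 and 2.

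PRDX2, a peroxiredoxin of the cytosol that thioredoxin recycles, had a signal of 8789.8 and 10466 on the primordial, 4556 and 7242 on the middle and 8585 and 9043.5 on the last arrays. The middle arrays were the lowest, and the last and primordial arrays overlapped. PRDX2 fell 1.67-fold at the middle stage relative to the primordial stage (-0.74 ± 0.21, adjusted p = 0.0180). That call was lost with quantile normalization (-0.42, adjusted p = 0.118), without primordial replicate 2 (-0.61, adjusted p = 0.111) and without middle replicate 1 (-0.40, adjusted p = 0.132). The last stage was above the middle stage by 0.62 ± 0.21 (adjusted p = 0.0758), a difference that passed without middle replicate 2 (0.95, adjusted p = 0.0254) and after median centring (0.72, adjusted p = 0.0449). Between the last and primordial stages the difference was -0.12 ± 0.21 (adjusted p = 0.690).

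PRDX6, the peroxiredoxin that uses glutathione in place of thioredoxin and also acts as a phospholipase, had another course. Its signal was 4573 and 5504 on the primordial, 4029 and 5024 on the middle and 2491 and 2309.6 on the last arrays. Both last arrays were below all 4 others, and the middle and primordial arrays overlapped. PRDX6 fell 1.87-fold at the last stage relative to the middle stage (-0.90 ± 0.18, adjusted p = 0.00914) and 2.08-fold relative to the primordial stage (-1.06 ± 0.18, adjusted p = 0.00247). Without middle replicate 2 the difference from the middle stage was -0.74 (adjusted p = 0.0676), while the call against the primordial stage held in all 17 settings tried, at -1.29 to -0.92. The middle minus primordial difference was -0.16 ± 0.18 (adjusted p = 0.499).

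HMOX1 was read by a single probe set. Its signal was 5679 and 6807 on the primordial, 1154 and 1373 on the middle and 1034 and 1551 on the last arrays. The primordial arrays stood apart and the last arrays spanned the middle ones. HMOX1 was 4.89-fold lower at the middle stage than at the primordial stage (-2.29 ± 0.23, adjusted p = 7.87e-05) and 4.86-fold lower at the last stage (-2.28 ± 0.23, adjusted p = 0.000202), with 0.01 ± 0.23 (adjusted p = 0.985) between the last and middle stages.

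All 6 calls of SOD2, GPX1 and HMOX1 against the primordial stage held in each of the 17 settings. Over those settings the middle minus primordial difference ranged from -3.08 to -2.32 for SOD2, from -2.97 to -2.20 for GPX1 and from -2.70 to -2.16 for HMOX1. Relative to the primordial stage immune markers moved the same way: all 7 tested were lower at the middle and at the last stage, with median differences of -3.66 and -2.48. Between the last and middle stages 2 of the 7 were called higher and 0 lower, with a median difference of 1.03. SOD2, GPX1 and HMOX1 were not called there. Over all 9 immune markers on the array, the lowest single signal was 47.5 on the primordial, 21 on the middle and 18.5 on the last arrays. None was thus at 0. Among the 7 tested, the lowest was 1096.9 on the primordial (LAPTM5), 45.7 on the middle and 102 on the last arrays (both ITGB2). Within a stage, the replicate with the larger immune sum also had the larger SOD2 signal in 3 of 3 stages. This held in 1 of 3 stages for GPX1 and for HMOX1. The SOD2 signals of the middle arrays were close (1095 and 1079), and 3 pairs of arrays are too few to tell the genes apart. The part of immune cells in these differences was not tested. In whole follicles, fewer cells of a type and less RNA per cell cannot be told apart.

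**Figure D2:**
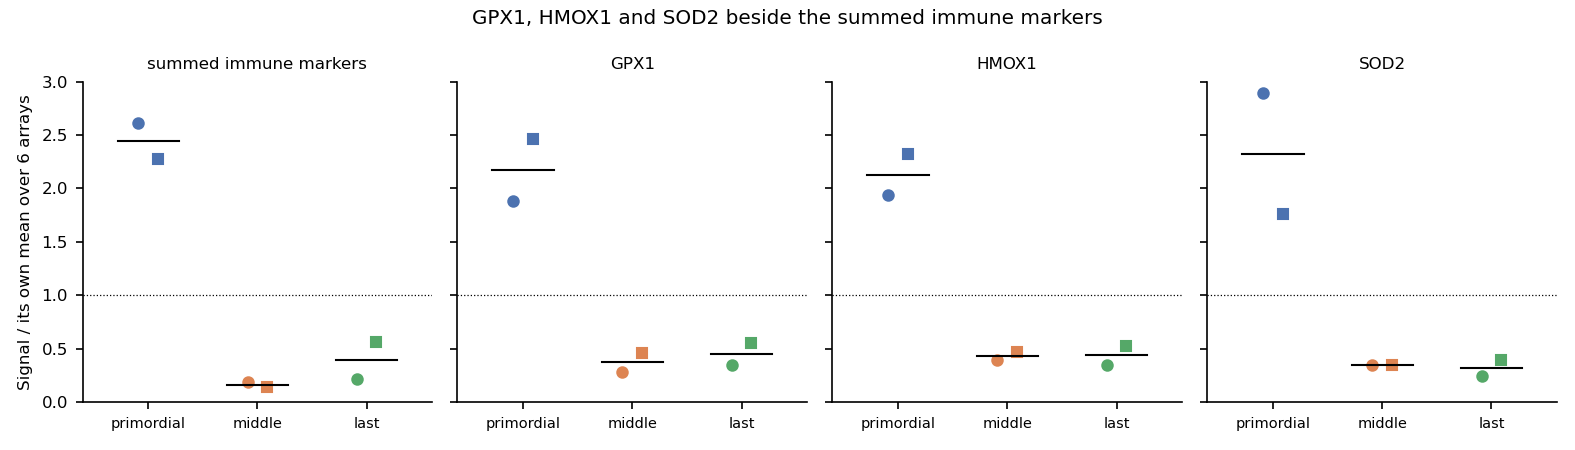
Signal of each array relative to its own mean over the 6 arrays (linear axis from 0), for the summed immune markers, GPX1, HMOX1 and SOD2, by stage. Circles are replicate 1 and squares are replicate 2. All 4 measures are highest on both primordial arrays, and the immune sum of last replicate 2 (4530.2) exceeds that of last replicate 1 (1780.4).

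Over the 6 arrays, on the log2 scale, HMOX1 correlated with GPX1 at r = 0.99, with SOD2 at 0.97 and with CAT at -0.98, and SOD2 with GPX1 at 0.94. These values describe 3 stages of 2 arrays, and the points share the step between the primordial arrays and the rest. Outside the members, 6948 tested probe sets with named genes were compared, and only the highest r values are given. The sets closest to HMOX1 were PHLDB1 (r = 0.999), STK17A (0.998) and TES (0.996). Those closest to SOD2 were SH3GLB1 (0.998), CD300C (0.994) and YTHDF2 (0.993), and those closest to GPX1 were HEXA (0.998), ACP2 (0.997) and SIAH2 (0.996). CD300C was dim outside the primordial stage, with 4.3 and 9.5 on the middle and 3.7 and 21.7 on the last arrays.

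TXN encodes the small dithiol protein that passes electrons to peroxiredoxins and other targets, and its probe sets disagreed. Set Ssc.6696.1.A1_at had a signal of 23336 and 28353 on the primordial, 17600.4 and 19267 on the middle and 23303 and 24069.7 on the last arrays. The middle arrays were the lowest, and the last and primordial arrays overlapped. It fell 1.40-fold at the middle stage relative to the primordial stage (-0.48 ± 0.13, adjusted p = 0.0132). The last stage was above the middle stage by 0.36 ± 0.13 (adjusted p = 0.0839), and below the primordial stage by a difference of -0.12 ± 0.13 (adjusted p = 0.509). The middle minus primordial call was lost in 4 of the 17 settings. Among these, the difference was -0.34 without primordial replicate 2 and -0.42 without middle replicate 1. The last minus primordial difference was 0.02 without primordial replicate 2. The last minus middle difference passed after median centring (0.47, adjusted p = 0.0373) and with quantile normalization (0.37, adjusted p = 0.0287).

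TXN set Ssc.6696.1.S1_at had a signal of 632 and 452 on the primordial, 791 and 982 on the middle and 1008 and 952 on the last arrays. Here the primordial arrays were the lowest, and the middle and last arrays overlapped. It rose 1.63-fold at the middle stage (0.70 ± 0.23, adjusted p = 0.0313) and 1.81-fold at the last stage (0.85 ± 0.23, adjusted p = 0.0199), each relative to the primordial stage. The last and middle stages differed by 0.15 ± 0.23 (adjusted p = 0.696). After median centring the middle-stage rise was 0.46 (adjusted p = 0.127), and with quantile normalization it was 0.55 (adjusted p = 0.0800). It was also lost without primordial replicate 2 (0.47, adjusted p = 0.219), middle replicate 1 (0.86, adjusted p = 0.0554) or middle replicate 2 (0.55, adjusted p = 0.160). The last-stage rise was lost without primordial replicate 2 (0.62, adjusted p = 0.150) or last replicate 1 (0.81, adjusted p = 0.0725). The sets correlated at r = -0.56 over the 6 arrays, and their names differ only in the letter A or S, whose meaning no source used here gives. Which of them follows TXN mRNA was not tested, so no direction is given for the gene.

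**Figure D3:**
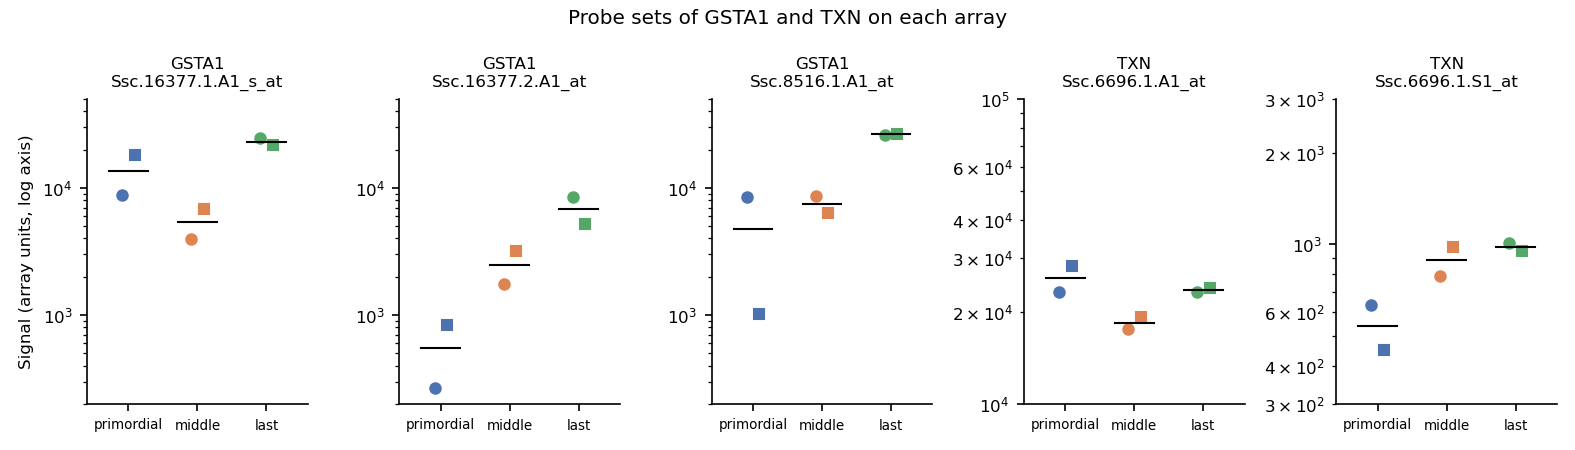
Signal on each array (log axes) for the 3 probe sets of GSTA1 and the 2 of TXN, by stage. Circles are replicate 1, squares are replicate 2 and bars are the mean of a stage. All 3 GSTA1 sets are highest on both last arrays, but set Ssc.16377.1.A1_s_at is lowest at the middle stage and set Ssc.16377.2.A1_at at the primordial stage, while the primordial arrays of set Ssc.8516.1.A1_at lie 8.35-fold apart.

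GSTA1 encodes an alpha-class glutathione transferase, a class whose members are alike in sequence and in which some isomerise steroid intermediates. Set Ssc.16377.1.A1_s_at had a signal of 8812 and 18246 on the primordial, 3958 and 6797 on the middle and 24415 and 21823 on the last arrays. The 3 stages did not overlap, with the middle arrays lowest and the last arrays highest. It fell 2.44-fold at the middle stage relative to the primordial stage (-1.29 ± 0.33, adjusted p = 0.0105) and was 4.44-fold higher at the last stage than at the middle stage (2.15 ± 0.33, adjusted p = 0.00252). The last minus primordial difference was 0.86 ± 0.33 (adjusted p = 0.0706), and it passed without primordial replicate 2 (1.39, adjusted p = 0.0131). The fall at the middle stage was lost without primordial replicate 2 (-0.76, adjusted p = 0.0719) or middle replicate 1 (-0.90, adjusted p = 0.116). The annotation pairs this set with 2 transcripts, only 1 of which could be matched to GSTA1, so related transcripts may share its signal.

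GSTA1 set Ssc.16377.2.A1_at had a signal of 269 and 838 on the primordial, 1759 and 3169 on the middle and 8500.1 and 5162 on the last arrays. The stages again did not overlap, but here their order was primordial, middle, last. It rose 4.82-fold at the middle stage (2.27 ± 0.48, adjusted p = 0.00407) and 13.5-fold at the last stage (3.75 ± 0.48, adjusted p = 0.000624), each relative to the primordial stage. The last minus middle difference was 1.48 ± 0.48 (adjusted p = 0.0622). Without middle replicate 2 the middle-stage rise was 1.85 (adjusted p = 0.0518), and without primordial replicate 1 it was 1.48 and still called. The last minus middle difference of 1.48 passed without primordial replicate 1 (adjusted p = 0.0168) or primordial replicate 2 (adjusted p = 0.0173), and with only the 4 arrays of those stages in the fit (adjusted p = 0.0143).

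GSTA1 set Ssc.8516.1.A1_at had a signal of 8494 and 1017 on the primordial, 8599 and 6387 on the middle and 26170.4 and 26353 on the last arrays. Both last arrays were above the other 4, and the primordial arrays, 8.35-fold apart, reached into the range of the middle ones. It was 8.86-fold higher at the last stage than at the primordial stage (3.15 ± 0.72, adjusted p = 0.0101). The size of that difference rests on the primordial arrays, being 1.63 without primordial replicate 2 and 4.67 without primordial replicate 1, and it was called in both cases. The middle minus primordial difference was 1.32 ± 0.72 (adjusted p = 0.160), with 2.85 (adjusted p = 0.000118) without primordial replicate 1 and -0.20 (adjusted p = 0.491) without primordial replicate 2. The last minus middle difference of 1.82 ± 0.72 was not called (adjusted p = 0.116) with an SE estimated over all 6 arrays, the primordial ones included. It passed with only the 4 middle and last arrays in the fit (adjusted p = 0.000186), without primordial replicate 1 (adjusted p = 0.000364) and without primordial replicate 2 (adjusted p = 0.000248).

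All 3 GSTA1 sets thus had both last arrays above both middle arrays, by 2.15, 1.48 and 1.82, of which the first was called with all 6 arrays in the fit. Their correlations with each other over the 6 arrays were 0.38, 0.17 and 0.59. Theca markers (6 of 7 listed genes) were chosen for the steroid-producing cells around the follicle. Whether they mark those cells alone was not tested. Their signals summed to 6389.6 and 6021 on the primordial, 3390.2 and 4699 on the middle and 19793 and 22868 on the last arrays. Granulosa markers (12 genes) summed to 40739.6 and 53887 on the primordial, 13559 and 19591 on the middle and 65634 and 59489.7 on the last arrays. Both sums were lowest at the middle stage and highest at the last stage, but their genes did not all follow that order. All 6 theca markers tested were called higher at the last than at the middle stage. Between the middle and primordial stages 3 of them were higher (STAR, INSL3 and HSD3B1) and 1 lower (CYP11A1), with a median difference of 0.98. CYP11A1 alone made up 4673 and 4311 of the primordial sums, against 256 and 1090.2 of the middle sums in the order of the replicates. Of 8 granulosa markers tested, 5 were lower and 1 higher at the middle than at the primordial stage, and 5 were higher and 2 lower at the last than at the middle stage. AMH ran against the sum, with 2.41 ± 0.31 between middle and primordial (adjusted p = 0.000289) and -3.40 ± 0.31 between last and middle (adjusted p = 0.000135), and FSHR was also lower at the last than at the middle stage (-1.06 ± 0.23, adjusted p = 0.0139). The markers named here were chosen after their values were seen. The part of either cell type in the GSTA1 differences was not tested.

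Read as counts, 9 of the 13 tested member probe sets were called between the middle and primordial stages, 3 higher (CAT and 1 set each of TXN and GSTA1) and 6 lower (SOD2, GPX1, HMOX1, PRDX2 and 1 set each of TXN and GSTA1). Of all 14399 probe sets tested, 47.4% were called there, 29.7% higher and 17.7% lower. The count was 4 without primordial replicate 2, and 4 without middle replicate 1. Between the last and middle stages 2 of 13 were called, GSTA1 set Ssc.16377.1.A1_s_at higher and PRDX6 lower, against 17.2% of all sets, 7.29% higher and 9.94% lower. That count was 4 without primordial replicate 1 or primordial replicate 2. Between the last and primordial stages 8 were called, 4 higher (CAT, 1 TXN set and 2 GSTA1 sets) and 4 lower (SOD2, GPX1, HMOX1 and PRDX6), against 33.2% of all sets, 19.8% higher and 13.4% lower. An F-test for any stage difference called 11 of 13, all but SOD1 and GPX4 set Ssc.11742.1.S1_at, against 50.3% of all sets, and 7 without primordial replicate 2 or middle replicate 1. The arrays of the stages compared did not overlap for 10 of 13 sets between middle and primordial, 6 between last and middle and 11 between last and primordial, against 76.7%, 60.2% and 69.0% of all sets.

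The comparisons of the middle and the last stage with the primordial stage share the primordial arrays. The median difference of the 13 sets was -0.47 between middle and primordial, 0.15 between last and middle and -0.12 between last and primordial, against 0.22, -0.07 and 0.14 over all sets tested. The share of calls that were higher depends on the scale: over all sets it was 62.7%, 42.3% and 59.7% in these comparisons, and 47.5%, 54.8% and 47.4% after median centring. With that centring the members split into 1 higher and 7 lower, 3 higher and 1 lower, and 3 higher and 5 lower. GSTA1 and TXN were called in both directions between the middle and primordial stages as reported.

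**Figure D4:**
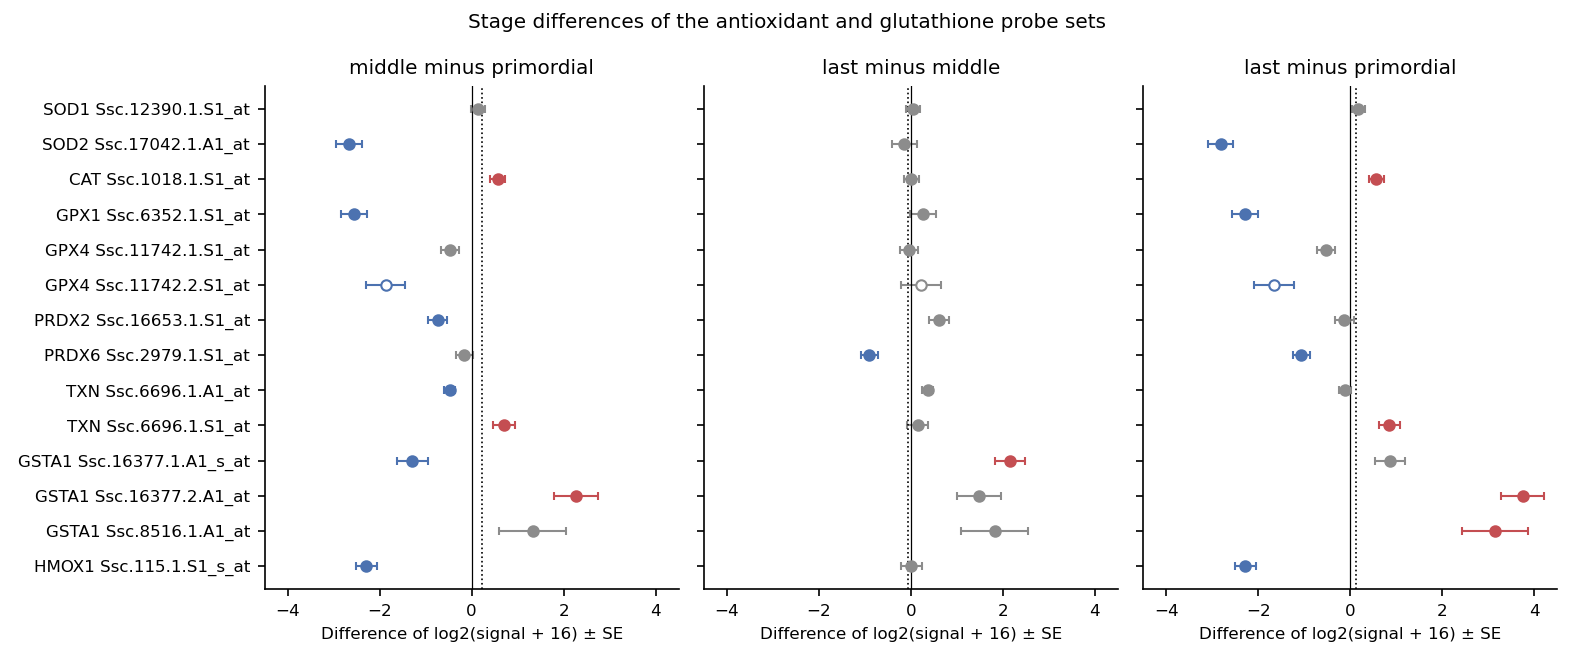
Difference of each member probe set on the log2(signal + 16) scale with its SE, in the 3 comparisons. Red is called higher, blue is called lower, grey is not called, the open symbol is the GPX4 set fitted without the filter, and the dotted line is the median of all tested sets (0.22, -0.07 and 0.14). SOD2, GPX1 and HMOX1 are the lowest tested sets in both comparisons with the primordial stage and lie near 0 between the last and middle stages.

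Beyond the 10 members, 119 genes of the same pathways were listed by role, of which 73 are on the array and 62 were tested, each by 1 probe set. Between the middle and primordial stages 11 were higher and 18 lower, which is 46.8% of them, against 45.5% of 5432 genes tested, 22.9% higher and 22.5% lower. Between the last and middle stages 9 were higher and 3 lower (19.4% against 16%, of which 8.8% higher and 7.23% lower), and between the last and primordial stages 13 were higher and 11 lower (38.7% against 32.9%, of which 17.2% higher and 15.8% lower). The split depends on the scale: after median centring it was 8 higher and 25 lower, 14 higher and 3 lower, and 10 higher and 14 lower in these comparisons, and after quantile normalization 10 and 20, 10 and 4, and 11 and 10. On the reported scale the shares called, in either direction together, thus lie near those of all genes, and the named genes below are those with the smallest p-values in a list. Unless said otherwise, each call named was made in all 17 settings.

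Of 14 tested genes of the thioredoxin system and repair, 3 were higher and 5 lower at the middle than at the primordial stage. GLRX, the glutaredoxin that removes glutathione from proteins, had 2663 and 2438 on the primordial, 102 and 116.5 on the middle and 142 and 367.5 on the last arrays. It fell by 4.36 ± 0.36 at the middle stage (adjusted p = 3.25e-05) and also fell at the last stage (-3.38 ± 0.36, adjusted p = 0.000276), each relative to the primordial stage. TXNRD1, the reductase that recharges thioredoxin, had 4426 and 5056 on the primordial, 585 and 735.5 on the middle and 1017.5 and 919 on the last arrays. In the same comparisons it fell (-2.82 ± 0.20, adjusted p = 1.48e-05, and -2.27 ± 0.20, adjusted p = 9.67e-05). These values are of the brightest of 3 tested TXNRD1 probe sets, of which 2 were called lower in each comparison. The other sets were not followed over the settings. MSRB2, which repairs oxidised methionine in mitochondria, rose by 1.02 ± 0.18 at the last stage relative to the primordial stage (adjusted p = 0.00309).

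Glutathione synthesis starts with glutamate cysteine ligase, which has a catalytic and a modifier subunit. The catalytic subunit GCLC had 5756 and 5674 on the primordial, 4938 and 4555 on the middle and 9856 and 8767 on the last arrays. It rose by 0.97 ± 0.14 at the last stage relative to the middle stage (adjusted p = 0.00224) and by 0.70 ± 0.14 relative to the primordial stage (adjusted p = 0.00622). The modifier subunit GCLM fell by 1.85 ± 0.33 at the middle stage relative to the primordial stage (adjusted p = 0.00186). GCLC differed by -0.27 ± 0.14 there and was not called (adjusted p = 0.155), though 1 of its 3 tested probe sets was called lower. GCLM was not called between the last and middle stages (1.03 ± 0.33, adjusted p = 0.0646) or between the last and primordial stages (-0.83 ± 0.33, adjusted p = 0.0860). Of the 6 tested genes of glutathione synthesis and recycling, 1 was higher and 1 lower between the middle and primordial stages. After median centring 0 were higher and 3 lower, and after quantile normalization 0 were higher and 2 lower.

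Among 7 other glutathione transferases, 4 were higher and 1 lower at the middle than at the primordial stage, and 1 was higher and 2 were lower at the last than at the middle stage. MGST1, a membrane-bound transferase, had 4473 and 3413 on the primordial, 2016 and 1425 on the middle and 12513 and 15971 on the last arrays. It was lowest at the middle stage and highest at the last, as GSTA1 set Ssc.16377.1.A1_s_at was. MGST1 rose by 3.05 ± 0.22 at the last stage relative to the middle stage (adjusted p = 4.28e-05) and fell by 1.20 ± 0.22 at the middle stage relative to the primordial stage (adjusted p = 0.00210). MGST3 and the mu-class GSTM3 went the other way, with rises of 1.14 ± 0.19 (adjusted p = 0.00111) and 2.90 ± 0.35 (adjusted p = 0.000209) at the middle stage relative to the primordial stage. At the last stage relative to the middle stage MGST3 fell by 1.08 ± 0.19 (adjusted p = 0.00460) and GSTM3 also fell (-2.18 ± 0.35, adjusted p = 0.00328), though without middle replicate 1 the GSTM3 call was lost (adjusted p = 0.0612).

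The list for the supply of NADPH, the electron source of glutathione and thioredoxin reductases, had 7 tested genes. Of these, 4 were called lower at the middle stage relative to the primordial stage and none was called higher, where 22.5% of all genes were called lower. In that list 2 were higher and 0 lower between the last and middle stages, and between the last and primordial stages 1 was higher and 2 were lower. The genes lower at the middle stage include PGD (-1.33 ± 0.29, adjusted p = 0.00510), TKT (-1.24 ± 0.27, adjusted p = 0.00487) and TALDO1 (-1.37 ± 0.24, adjusted p = 0.00143), enzymes of the pentose phosphate pathway. Of these, PGD forms NADPH itself, while TKT and TALDO1 do not. Without middle replicate 1 the difference was -0.87 for PGD and -0.78 for TKT. CYBA, the membrane subunit of the phagocyte oxidase that makes superoxide, fell by 1.68 ± 0.24 in that comparison (adjusted p = 0.000551). It was 1 of 2 tested of the enzymes that form superoxide or peroxide.

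The ferritin chains FTH1 and FTL, which store the iron that haem oxygenase releases, were the 2 lower of 4 tested genes of haem and iron handling at the middle stage relative to the primordial stage. FTH1 differed by -0.85 ± 0.14 (adjusted p = 0.00137) and FTL by -0.84 ± 0.15 (adjusted p = 0.00186). A second FTL probe set, not followed over the settings, was called higher at the last than at the primordial stage, where the set used here was called lower (adjusted p = 0.00145). Around NRF2, the transcription factor that drives many of these enzymes, 3 genes were tested. SQSTM1, an autophagy receptor that sequesters the inhibitor of NRF2, fell at the middle stage (-1.70 ± 0.17, adjusted p = 8.87e-05) and at the last stage (-1.09 ± 0.17, adjusted p = 0.00186), each relative to the primordial stage. SQSTM1 was higher at the last than at the middle stage (0.61 ± 0.17, adjusted p = 0.0402), a call lost in 10 of the 17 settings. NQO1 and NQO2 were not called in any comparison. They differed by 0.19 and 0.16 between middle and primordial and by 0.30 each between last and primordial.

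The remaining lists differed in the share of genes called. Of 4 other peroxiredoxins, limma called 0 between the middle and primordial stages and 0 between the last and middle stages, with 1 under an unadjusted p of 0.05 in each comparison. It called 1 of 4 between the last and primordial stages, the mitochondrial PRDX3 (0.52, adjusted p = 0.0447), a call lost in 11 of the 17 settings. Among these were the fits without primordial replicate 1 (0.52, adjusted p = 0.157), primordial replicate 2 (0.52, adjusted p = 0.154), middle replicate 1 or middle replicate 2 (0.52, adjusted p = 0.0619 each) or last replicate 1 (0.36, adjusted p = 0.217). Of 2 other glutathione peroxidases tested, 1 was higher and 1 lower in both comparisons with the primordial stage. GPX7, a peroxidase of the endoplasmic reticulum, rose by 1.40 ± 0.24 at the last stage relative to the primordial stage (adjusted p = 0.00265). Its middle-stage call was lost in 8 of the 17 settings. GPX3 differed from the primordial stage by -1.25 ± 0.33 at the middle stage (adjusted p = 0.0119) and by -1.43 ± 0.33 at the last stage (adjusted p = 0.0100). Those calls were lost in 2 and 1 of the 17 settings. Of 11 metallothioneins, selenium genes and others, 2 were higher and 2 lower at the middle than at the primordial stage. SELENOS, a selenoprotein of the endoplasmic reticulum, fell by 2.98 ± 0.20 (adjusted p = 1.36e-05), with 11912 and 12125 on the primordial, 1505.5 and 1508.5 on the middle and 3120.5 and 4763 on the last arrays. The metal-binding MT3 rose by 2.40 ± 0.21 in the same comparison (adjusted p = 4.14e-05).

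**Figure D5:**
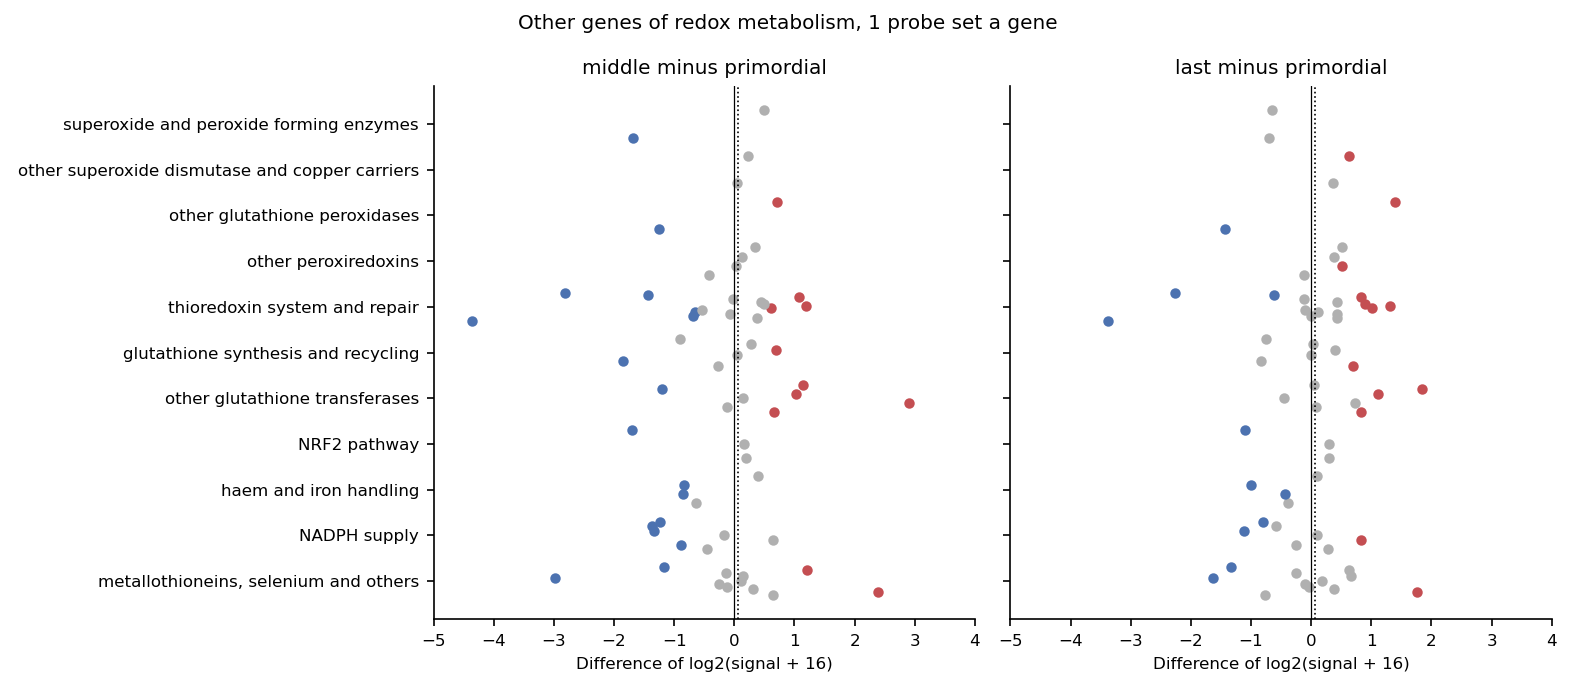
Difference on the log2(signal + 16) scale of each tested gene in 11 pathway lists, for middle minus primordial and last minus primordial. Red is called higher, blue is called lower, grey is not called, and the dotted line is the median over 5432 genes (0.06 in both panels). Most lists hold genes on both sides of 0, and GLRX has the lowest value in both panels.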

How the data were processed

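RNA of 6 samples, 2 for each stage, was hybridised on single-channel Affymetrix porcine arrays; per the labels' protocols it was extracted with Trizol and labelled from 6 µg. The deposited intensity values, 1 per probe set, were made by the authors with GCOS, the array maker's software, per the submitters' processing notes; no source used here gives its version or settings. No detection calls were used. Of 24123 probe sets, 124 controls were left out. The platform annotation gives 1 symbol for 10069, several for 198 and none for 13732; identifiers of all 10 members gave the same symbol in the RefSeq gene table.

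Samples were grouped by title. Intensities were analysed as log2(signal + 16) without further normalization, leaving out the 40% with the lowest mean (under 91.3), so that 14399 were tested. The pseudocount understates changes of dim probe sets. limma 3.58.1 in R 4.3.3 (lmFit, eBayes with an intensity trend; 3 residual and 6.33 prior degrees of freedom) fitted all 6 arrays, two-sided, with Benjamini-Hochberg adjustment over all sets tested and a threshold of 0.05. The fit was tested on simulated data. With 2 arrays a stage, their number limits the precision.

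Alternatives were pseudocounts of 1 and 64, no filter, a 60% filter, centring, quantile normalization, no trend, a replicate block, 4-array fits and leaving out each array. All member probe sets are named; from each pathway list, up to 3 called genes with the smallest p per comparison, and the 3 probe sets most like a member. A listed gene with several probe sets was represented by the brightest. Members and lists were chosen with earlier results of these data known. No sequence or genome position is given. Python 3.11.15, pandas 2.3.3 and matplotlib 3.10.9 were used for tables and figures.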

Additional observations from a re-analysis of the deposited data

How the results depend on the processing

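The middle minus primordial and last minus primordial calls of SOD2, GPX1 and HMOX1 kept their direction and stayed called under all alternatives run. Over 94 single differences and 1495 alternative values, 1296 kept direction and call, 143 lost the call, 28 gained it and 28 changed sign, none of the last a called difference. The last minus middle count of 2 member sets was 4 with arrays centred on the median, 4 with only the 4 arrays of those stages and 5 when the centring used all probe sets, an alternative chosen after seeing the data. The pathway count in that comparison was 12, against 21 with that added centring and 7 without the intensity trend. Leaving out each array in turn gave 4 to 9 member calls between middle and primordial, 2 to 4 between last and middle, 6 to 9 between last and primordial, and 7 to 11 in the F-test. Over all probe sets the counts ranged from 4356 to 7189, from 727 (without middle replicate 1) to 2172 and from 2730 to 4297 in the 3 comparisons, and over the pathway lists from 22 to 31, from 5 (without middle replicate 1) to 12 and from 16 to 26. Differences that changed sign with the added centring were SOD1 (-0.27 between middle and primordial, -0.042 between last and primordial), SOD2 (0.046) and GPX4 (0.15, and 0.067 with the planned centring), the last pair between last and middle. SOD1 between middle and primordial was -0.10 with the planned centring. With quantile normalization the last minus middle difference was -0.32 for SOD1 and -0.15 for CAT, and PRDX6 differed by 0.14 between middle and primordial. Further uncalled differences changed sign when single arrays were left out. Between middle and primordial, GSTA1 set Ssc.8516.1.A1_at ranged from -0.20 to 2.85, SOD1 from -0.016 to 0.30 and PRDX6 from -0.32 to 0.0021. Between last and middle, SOD1 ranged from -0.11 to 0.20, SOD2 from -0.47 to 0.18, CAT from -0.11 to 0.13, GPX1 from -0.084 to 0.61, HMOX1 from -0.28 to 0.30, TXN set Ssc.6696.1.S1_at from -0.0035 to 0.30, GPX4 set Ssc.11742.1.S1_at from -0.30 to 0.22 and GPX4 set Ssc.11742.2.S1_at from -0.26 to 0.71. Between last and primordial, TXN set Ssc.6696.1.A1_at ranged from -0.26 to 0.021 and PRDX2 from -0.25 to 0.0035. The cause was not tested. The titles do not say whether the replicate numbers pair the samples. Deviations of same-numbered arrays correlated at 0.06, 0.03 and -0.05 between stages, which cannot show whether such samples shared an animal or pool. With the replicate block the 3 comparisons gave 9, 3 and 9 member calls and 28, 9 and 21 pathway calls; GSTA1 set Ssc.16377.1.A1_s_at between last and primordial (adjusted p = 0.0376) and PRDX2 between last and middle (0.0494) were then called.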
